A study of Homo sapiens with 6 samples.

Results

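The genes described here are 38 genes of glycolysis, gluconeogenesis and lactate handling, chosen by name from the deposited expression table of Hep G2 cells, which lists 23524 genes. Hep G2 is a human hepatocellular carcinoma line. The 3 control libraries came from Hep G2 cells infected with an empty lentivirus vector, and the 3 EFTUD2 libraries from Hep G2 cells stably overexpressing EFTUD2, a GTPase of the spliceosome, from a lentivirus. Both groups were therefore lentivirus-infected cells of 1 line, and no clone, passage or culture is stated for a library, so the replicates may differ only technically. Values are FPKM, fragments counted per gene and scaled to transcript length and library size. They were compared as log2(FPKM + 1) with limma over the 17222 genes whose mean reached 0.1 FPKM, and p-values were adjusted by the Benjamini-Hochberg method over all of these genes. Of the 38 genes, 37 passed this filter, and PDK4 did not. Where 3 values are given for a group, they follow the order of replicates 1, 2 and 3.

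Glycolysis splits glucose into pyruvate, and it is fed by glucose transporters and by hexokinase, which traps glucose as its phosphate. Phosphofructokinase is the main controlled step, and fructose-2,6-bisphosphate, made by the PFKFB enzymes, activates it. Lactate dehydrogenase reduces pyruvate to lactate, which leaves the cell through monocarboxylate transporters, while the pyruvate dehydrogenase complex sends pyruvate to the mitochondria unless its kinases switch it off. The liver also runs the route backwards to make glucose, through pyruvate carboxylase, PEP carboxykinase, fructose-1,6-bisphosphatase and glucose-6-phosphatase. Many steps have several isozymes. Adult hepatocytes use aldolase B, the liver pyruvate kinase and the transporter GLUT2, whereas liver tumors often rely on hexokinase 2, aldolase A, PKM and GLUT1.

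EFTUD2 itself had a mean level of 47.3 ± 6.65 FPKM in control cells and 106.3 ± 3.30 FPKM in EFTUD2-overexpressing cells (SD, n = 3 each), with an adjusted p of 0.131 from limma. The libraries of 1 group were not equally alike. EFTUD2 replicates 1 and 2 differed by an SD of 0.231 across genes on the log2 scale, whereas EFTUD2 replicate 3 differed from them by 0.508 and 0.596, and the controls differed from each other by 0.213 to 0.363. Results that rest on EFTUD2 replicate 3 are therefore given with and without it. Among hepatocyte markers, ALB ranged from 1773 to 3027 FPKM in control cells and from 2215 to 4732 FPKM in EFTUD2-overexpressing cells, so a defining product of the labelled liver cells was abundant in all 6 libraries. The number of reads behind each FPKM value is unknown.

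The start regions of LDHB, LDHA and SLC2A1 are shown because LDHB had the largest fold change, LDHA encodes its abundant sister subunit, and SLC2A1 was the member that was lower in every EFTUD2 library. They were chosen after their values were seen. Each is the 250 bases before an annotated transcription start in RefSeq (GRCh38.p14), written 5′ to 3′ on the strand of the gene, with capitals marking ACGTG, the core of the hypoxia response element, or its reverse complement. LDHA has 2 annotated starts, and the window before the first is shown.
LDHB, chr12:21657843-21658092, minus strand: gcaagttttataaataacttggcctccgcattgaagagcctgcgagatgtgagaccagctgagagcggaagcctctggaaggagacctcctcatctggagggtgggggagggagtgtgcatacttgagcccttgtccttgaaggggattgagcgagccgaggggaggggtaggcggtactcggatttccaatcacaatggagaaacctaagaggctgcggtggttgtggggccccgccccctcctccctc
LDHA, chr11:18394313-18394562, plus strand: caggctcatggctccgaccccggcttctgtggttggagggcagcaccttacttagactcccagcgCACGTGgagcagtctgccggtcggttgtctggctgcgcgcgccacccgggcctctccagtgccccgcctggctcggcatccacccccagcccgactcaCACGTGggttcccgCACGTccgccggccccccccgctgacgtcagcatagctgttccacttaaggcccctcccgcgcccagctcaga
SLC2A1, chr1:42958869-42959118, minus strand: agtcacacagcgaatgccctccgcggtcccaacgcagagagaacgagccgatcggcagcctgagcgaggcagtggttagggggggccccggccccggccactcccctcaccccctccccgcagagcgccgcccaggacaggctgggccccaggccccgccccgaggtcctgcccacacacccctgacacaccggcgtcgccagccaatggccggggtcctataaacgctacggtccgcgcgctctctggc
The LDHA window shown held the letters ACGTG at 3 places, 2 of which were the palindrome CACGTG, and the windows of LDHB and SLC2A1 held none. The window before the second annotated start of LDHA, which is not shown, held none either. The window of LDHB held 9 CG dinucleotides, the one shown for LDHA 22 and that of SLC2A1 24. Over all 35116 windows the median was 11 and the quartiles were 3 and 23. Sequences were found for 34 of the 38 genes, in 67 windows. ACGTG on either strand occurred in 22 of these 67 windows (32.8%) and in 18.5% of all windows. CACGTG, which contains ACGTG, occurred in 13.4% and 6.34%, respectively, and GCGTG in 29.9% and 32.2%. Member windows held more CG dinucleotides, with a median of 19, so these shares are not matched for base composition. A match describes the letters only.

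None of the 37 tested genes passed an adjusted p of 0.05, and neither did any of the 17222 genes (0% called). The adjusted p of the members ranged from 0.358 to 0.992. At an unadjusted p under 0.05, 7 members (18.9%) were higher in EFTUD2-overexpressing cells, against 4.4% of all genes tested, and 1 member (2.70%) was lower, against 7.9% of all genes tested. In deposited FPKM, 9 members (24.3%) lay above every control in every EFTUD2 library, against 7.92% of all genes, and 1 member (2.70%) lay below every control, against 19.4% of all genes. The 9 higher genes were LDHB, PFKM, HK1, ALDOC, PCK2, PKLR, GAPDH, SLC37A4 and ALDOA, and the lower gene was SLC2A1. For a single gene with such a pattern, permuting the 6 labels exactly (two-sided permutation test) gives p = 0.1, the smallest it can give. Single libraries moved these counts. Without EFTUD2 replicate 3, 17 members were higher in both remaining EFTUD2 libraries than in every control, as were 14.8% of all genes then tested. In that fit 16 members had an unadjusted p under 0.05 in either direction, against 16.8% of all genes. Without control replicate 2, this held for 4 members and 6.34% of all genes. Members below every control numbered 4 without EFTUD2 replicate 1, against 23.4% of all genes, and 2 without control replicate 1 or without EFTUD2 replicate 2, against 26.6% of all genes in either case. The median log2 fold change was 0.19 over the members and -0.07 over all genes tested, and it was positive for 26 of 37 members (70.3%) and for 37.3% of all genes.

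**Figure D1:**
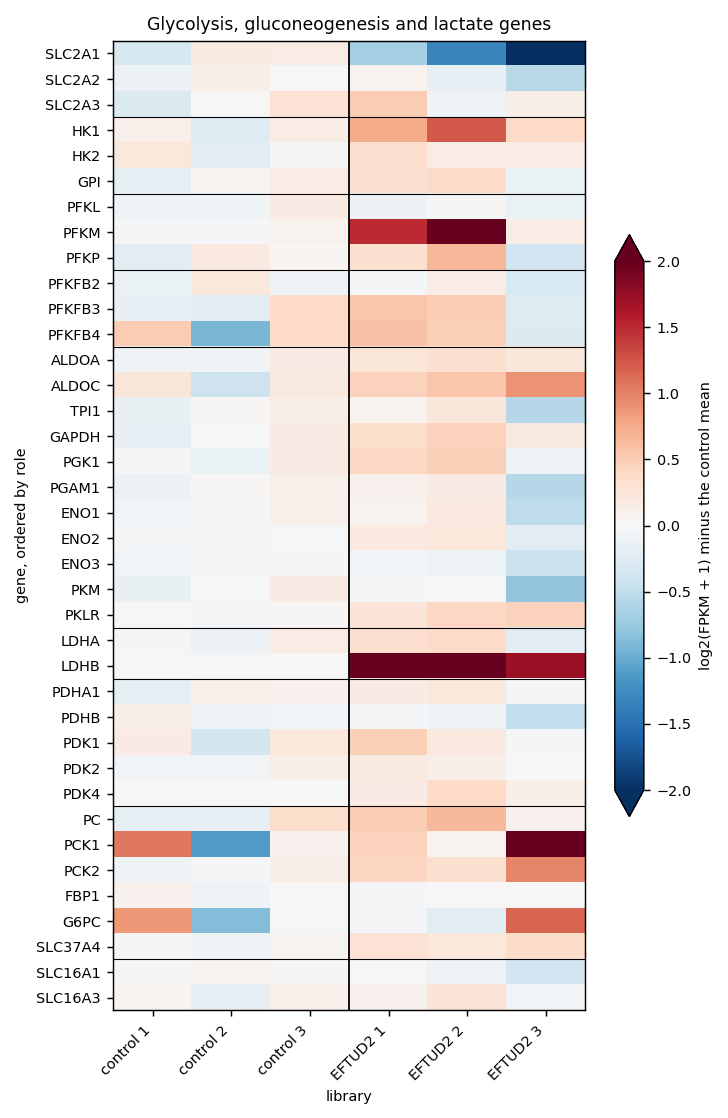
Each row is 1 of the 38 genes, ordered by role with lines between roles, and each column is 1 library. Color gives log2(FPKM + 1) minus the mean of the 3 controls, with the scale ending at 2 in either direction. LDHB is red in all 3 EFTUD2 libraries, least so in replicate 3, and PFKM is red in EFTUD2 replicates 1 and 2. PCK1 is dark red in EFTUD2 replicate 3 alone, and SLC2A1 is blue in all 3 EFTUD2 libraries.

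Of the glucose transporter genes SLC2A1, SLC2A2 and SLC2A3, SLC2A1 was lower in every EFTUD2 library, and the levels of the others overlapped between the groups. SLC2A1, which encodes GLUT1, the basal glucose transporter of most cells and many tumors, stood at 161.4, 227.74 and 223.4 FPKM in control cells and at 126.25, 80.53 and 46.08 FPKM in the EFTUD2 libraries. All EFTUD2 values were below all controls, and EFTUD2 replicate 3 was the lowest. Its mean was 2.42 times higher in control cells, with a log2 fold change of -1.36 (SE 0.35) and an adjusted p of 0.402 from limma. Without EFTUD2 replicate 3 the log2 fold change was -0.99. SLC2A3, encoding the high-affinity transporter GLUT3, ranged from 40.25 to 60.48 FPKM in control cells and from 46.18 to 70.55 FPKM in EFTUD2-overexpressing cells, and the groups overlapped. SLC2A2, encoding the liver transporter GLUT2, was low in both groups, at 8.63 ± 0.80 and 7.40 ± 1.80 FPKM (SD, n = 3).

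The shares of the transporters separated the groups, also for SLC2A3. A share is a ratio within a library and does not depend on that library's scaling. SLC2A1 made up 77.0%, 79.5% and 76.4% of the summed FPKM of SLC2A1, SLC2A2 and SLC2A3 in the controls and 61.3%, 60.0% and 43.8% in the EFTUD2 libraries. SLC2A3 made up 19.2%, 17.2% and 20.7% in the controls and 34.3%, 34.4% and 51.0% in the EFTUD2 libraries. EFTUD2 replicate 3 thus held more SLC2A3 than SLC2A1. The summed FPKM of the 3 transporters was 209.51, 286.32 and 292.46 in control cells and 205.89, 134.3 and 105.3 in EFTUD2-overexpressing cells, so every EFTUD2 library was below every control. Over 11 steps with several isozymes, 32 shares were computed, of which 7 were higher and 5 lower in every EFTUD2 library. Each of these 12 had an exact two-sided permutation p of 0.1, and none could pass an adjustment over 32 shares. Shares of 1 step sum to 100%, so they are not independent.

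**Figure D2:**
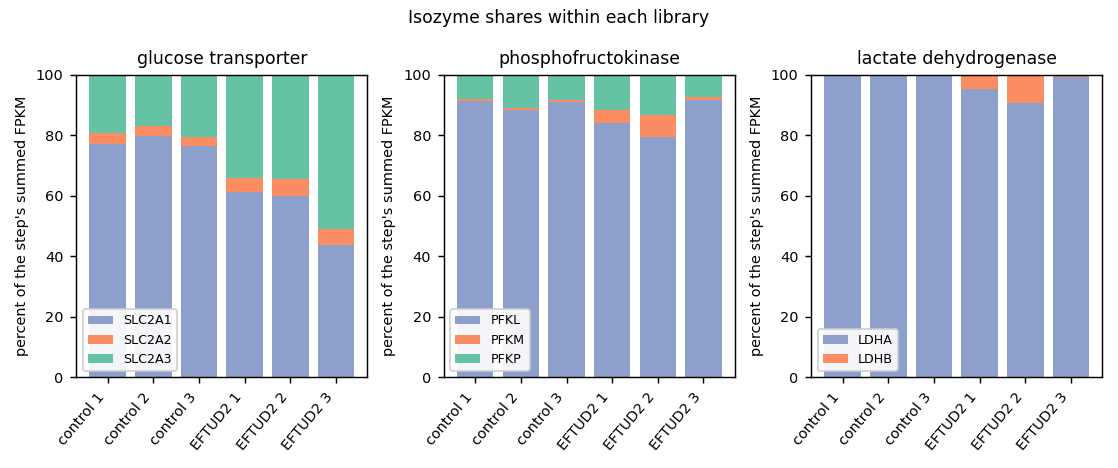
Stacked bars give the percent of a step's summed FPKM that each isozyme held in each of the 6 libraries, for the glucose transporters, phosphofructokinase and lactate dehydrogenase. SLC2A1 holds 76.4% to 79.5% in controls and 43.8% to 61.3% in EFTUD2 libraries, and PFKM and LDHB form a visible share in EFTUD2 replicates 1 and 2 only.

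HK2, the hexokinase typical of tumors, had the highest FPKM of the hexokinase genes in every library. Its level was 23.1 ± 3.59 FPKM in control cells and 26.7 ± 1.98 FPKM in EFTUD2-overexpressing cells (SD, n = 3). HK1, the hexokinase of most other tissues, was scarce and stood at 1.23, 0.73 and 1.30 FPKM in control cells and at 2.48, 3.84 and 1.74 FPKM in the EFTUD2 libraries. Every EFTUD2 library was above every control, with EFTUD2 replicate 2 the highest. The log2 fold change was 0.79 (SE 0.23), with an adjusted p of 0.402 from limma. HK1 held 1.88% to 3.50% of the summed hexokinase FPKM (HK1, HK2, HK3 and HKDC1) in control cells and 5.05% to 8.56% in EFTUD2-overexpressing cells. HKDC1, a further hexokinase, held 22.6% to 48.3% in control cells and 20.9% to 34.3% in EFTUD2-overexpressing cells. In control replicate 2, HKDC1 was close to HK2, at 18.73 and 19.33 FPKM. GPI, which turns glucose-6-phosphate into fructose-6-phosphate, stood at 72.63, 86.00 and 91.97 FPKM in control cells and at 103.84, 108.14 and 75.64 FPKM in the EFTUD2 libraries. EFTUD2 replicates 1 and 2 were above all controls and EFTUD2 replicate 3 was within their range.

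Phosphofructokinase was mostly the liver form PFKL, at 64.04, 63.67 and 76.16 FPKM in control cells and at 62.50, 68.72 and 61.52 FPKM in EFTUD2-overexpressing cells, with overlapping groups. PFKM, the muscle form, stood at 0.41, 0.39 and 0.50 FPKM in control cells and at 3.02, 6.21 and 0.58 FPKM in the EFTUD2 libraries. EFTUD2 replicates 1 and 2 stood well above the controls and EFTUD2 replicate 3 just above them. The mean was 7.55 times the control mean, and the log2 fold change was 1.32 (SE 0.50), with an adjusted p of 0.402 from limma. Without EFTUD2 replicate 3 the log2 fold change was 1.91 and the adjusted p was 0.0337, and without EFTUD2 replicate 2 the log2 fold change was 0.81. PFKM made up 0.541% to 0.597% of phosphofructokinase FPKM in control cells and 4.06%, 7.18% and 0.864% in the EFTUD2 libraries. PFKP, the platelet form, ranged from 5.71 to 8.01 FPKM in controls and from 5.03 to 11.56 FPKM in EFTUD2 libraries.

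The enzymes that set fructose-2,6-bisphosphate were expressed at a low level. PFKFB4, the most abundant of the 3 measured members, stood at 9.99, 3.12 and 9.26 FPKM in control cells and at 10.60, 9.83 and 5.41 FPKM in EFTUD2-overexpressing cells. Control replicate 2 was the lowest and the groups overlapped. PFKFB3 ranged from 2.38 to 4.22 FPKM and from 2.31 to 4.84 FPKM, and PFKFB2 from 3.48 to 4.72 FPKM and from 3.01 to 4.50 FPKM. In all 3 genes EFTUD2 replicate 3 had the lowest value among the EFTUD2 libraries.

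**Figure D3:**
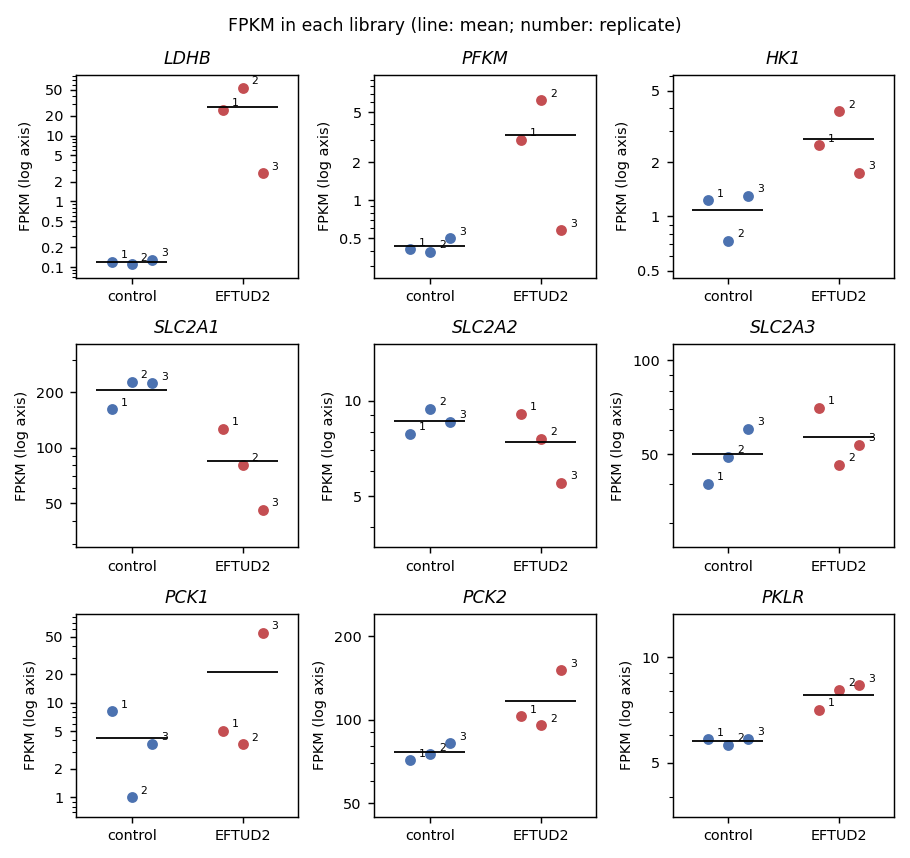
Each panel shows 1 gene, with FPKM on a log axis and a separate range per panel. Points are the 3 control (blue) and 3 EFTUD2 (red) libraries numbered by replicate, and lines are group means. LDHB, PFKM and HK1 share the order replicate 2, replicate 1, replicate 3 among the EFTUD2 libraries, whereas PCK1 and PCK2 are highest in EFTUD2 replicate 3.

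Among the 11 genes of lower glycolysis, 4 were higher in every EFTUD2 library in deposited FPKM, and 7 overlapped. The 4 were the abundant GAPDH and ALDOA and the scarce ALDOC and PKLR. GAPDH, which oxidizes glyceraldehyde-3-phosphate, had the highest level of all 38 genes, with 1454.55, 1636.23 and 1815.49 FPKM in control cells and 2079.67, 2248.85 and 1854.93 FPKM in EFTUD2-overexpressing cells. Its groups did not overlap, but EFTUD2 replicate 3 was close to control replicate 3. The FPKM sum over all genes was larger in EFTUD2 replicate 3 (434542) than in control replicate 3 (416208). With a common sum per library, GAPDH overlapped between the groups. The log2 fold change was 0.34 (SE 0.17), with an adjusted p of 0.416 from limma. ALDOA, the aldolase that splits fructose-1,6-bisphosphate, stood at 687.35, 691.68 and 817.04 FPKM in control cells. It stood at 861.66, 907.53 and 851.07 FPKM in the EFTUD2 libraries, again with no overlap as deposited. With a common sum per library, ALDOA overlapped too. Its log2 fold change was 0.26 (SE 0.13), with an adjusted p of 0.424 from limma. GAPDH is a common reference gene, and its level here is relative to the rest of the library.

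The less abundant forms ALDOC and PKLR were also higher in every EFTUD2 library. ALDOC, the brain aldolase, stood at 9.17, 5.45 and 8.72 FPKM in control cells and at 10.91, 11.58 and 15.08 FPKM in EFTUD2-overexpressing cells. Its log2 fold change was 0.64 (SE 0.21), with an adjusted p of 0.402 from limma. PKLR, the pyruvate kinase of liver and red cells, stood at 5.84, 5.62 and 5.86 FPKM in control cells and at 7.09, 8.06 and 8.31 FPKM in the EFTUD2 libraries. The control values were nearly equal, and the lowest EFTUD2 value was above them. PKLR had a log2 fold change of 0.38 (SE 0.12), with an adjusted p of 0.402 from limma. PKM, the pyruvate kinase of tumors and of most tissues, ranged from 387.1 to 483.57 FPKM in controls and stood at 425.62, 433.88 and 247.81 FPKM in the EFTUD2 libraries. PKLR therefore held 1.20% to 1.49% of pyruvate kinase FPKM in control cells and 1.64%, 1.82% and 3.24% in the EFTUD2 libraries. The larger share in EFTUD2 replicate 3 went with its low PKM.

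TPI1, PGK1, PGAM1 and ENO1, which carry the pathway from triose phosphate to phosphoenolpyruvate, overlapped between the groups. Their mean FPKM in control and EFTUD2-overexpressing cells was 320.3 and 307.3 for TPI1, 165 and 202 for PGK1, 234 and 223 for PGAM1, and 911 and 881 for ENO1. The direction of TPI1, PGAM1 and ENO1 depended on EFTUD2 replicate 3: their log2 fold changes were -0.09, -0.10 and -0.08 with it and 0.14, 0.13 and 0.14 without it. They also became positive under median-of-ratios scaling. ENO2, the neuronal enolase, stood at 31.6 ± 0.63 and 33.4 ± 5.74 FPKM, and ENO3, the muscle enolase, at 17.8 ± 0.63 and 15.6 ± 2.30 FPKM (SD, n = 3). Several of these abundant genes have processed pseudogenes that can share reads with them, and how the authors assigned such reads is not stated in the sources used here.

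The split between EFTUD2 libraries was seen to differing degrees in 9 abundant genes of the chain, but not in all members. GPI, ALDOA, TPI1, GAPDH, PGK1, PGAM1, ENO1, PKM and LDHA were grouped after their values were seen, as the abundant genes of the path from glucose-6-phosphate to lactate. Their summed FPKM was 4534, 4814 and 5408 in control cells and 5739, 6133 and 4540.4 in the EFTUD2 libraries. All 9 genes were lower in EFTUD2 replicate 3 than in EFTUD2 replicates 1 and 2. The ratio of EFTUD2 replicate 3 to the mean of EFTUD2 replicates 1 and 2 ranged from 0.577 in PKM to 0.962 in ALDOA. It was 0.938 in PFKL, which the group left out, and 1.34 and 1.10 in the scarce ALDOC and PKLR. Being lower in EFTUD2 replicate 3 than in both others was then counted more widely. Over all 37 tested members, this held for 29 (78.4%), against 57.8% of all genes tested. EFTUD2 replicate 3 was the lowest of the 6 libraries in 15 members (40.5%) and in 45.7% of all genes. The median over the members of log2(FPKM + 1) minus the control mean was 0.26 and 0.22 in EFTUD2 replicates 1 and 2 and -0.06 in EFTUD2 replicate 3.

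**Figure D4:**
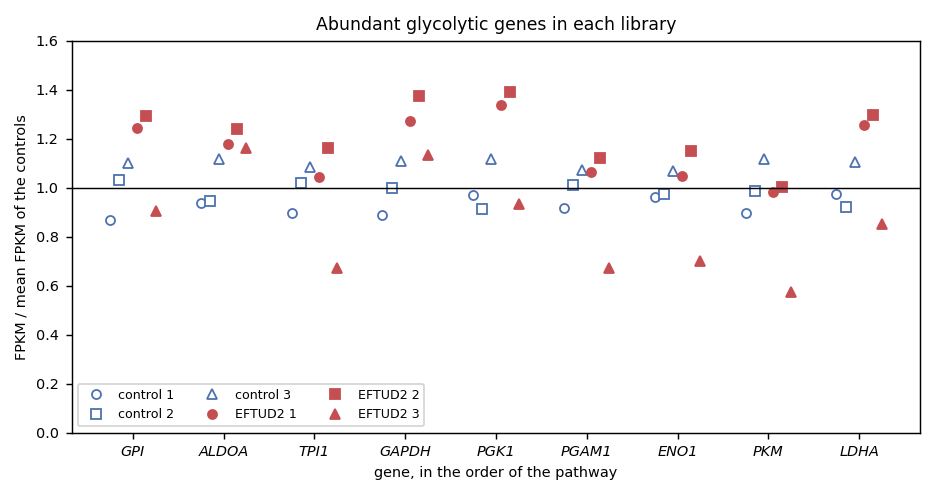
FPKM divided by the mean FPKM of the 3 controls is plotted for 9 abundant glycolytic genes in pathway order, with open blue symbols for control libraries, filled red symbols for EFTUD2 libraries, and circles, squares and triangles for replicates 1 to 3. EFTUD2 replicate 3 (red triangles) is the lowest EFTUD2 library in all 9 genes and reaches 0.573 of the control mean in PKM.

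Lactate dehydrogenase showed the largest fold change of the 38 genes. It is a tetramer of A and B subunits, and the A form favors lactate production while the B form favors the reverse reaction. LDHA stood at 392.75, 372.42 and 446.26 FPKM in control cells and at 507.67, 523.07 and 344.16 FPKM in the EFTUD2 libraries, so that EFTUD2 replicates 1 and 2 were above and EFTUD2 replicate 3 below all controls. LDHB was almost undetected in control cells, at 0.12, 0.11 and 0.13 FPKM, and stood at 24.99, 53.28 and 2.67 FPKM in the EFTUD2 libraries. All EFTUD2 values were far above the controls, and they differed from each other by up to 20.0-fold. The log2 fold change was 3.95 (SE 0.90), with an adjusted p of 0.358 from limma, and it was 5.07 with an adjusted p of 0.0105 without EFTUD2 replicate 3. LDHB held 0.0291% to 0.0305% of lactate dehydrogenase FPKM in control cells and 4.69%, 9.24% and 0.770% in the EFTUD2 libraries.

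LDHB and PFKM were 2 of the 37 members (5.41%) with an adjusted p under 0.05 from limma when EFTUD2 replicate 3 was left out, against 0.973% of the 17163 genes then tested. Their levels in the 3 EFTUD2 libraries were set beside those of VIM, CD44, KRT7, KRT17 and IL6, which did not exceed 1.8 FPKM in control cells and were chosen from earlier results of these data. Taking the rise above the control mean in EFTUD2 replicate 2 as 1, LDHB reached 0.468 in EFTUD2 replicate 1 and 0.0480 in EFTUD2 replicate 3. The same ratios were 0.448 and 0.0254 for PFKM and 0.506 and 0.237 for HK1. VIM, an intermediate filament gene of mesenchymal cells, gave 0.389 and 0.0468, CD44, a hyaluronan receptor gene, gave 0.455 and 0.0739, and KRT17, a keratin gene of basal epithelium, gave 0.490 and 0.0589. IL6, a cytokine gene, gave 0.569 and 0.0494, whereas KRT7, a keratin gene of bile duct and other simple epithelia, gave 0.393 and -0.0031. KRT7 stood at 0.61, 0.95 and 1.34 FPKM in control cells and at 24.68, 61.23 and 0.78 FPKM with EFTUD2, so that its EFTUD2 replicate 3 lay within the controls. VIM stood at 0.06, 0.08 and 0.12 FPKM in control cells and at 23.22, 59.59 and 2.87 FPKM in the EFTUD2 libraries. The part of these genes in the LDHB, PFKM and HK1 results was not tested, and in bulk RNA a change in a share of the cells cannot be told apart from a change in every cell.

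The marker lists of other cell types were read beside these genes. Of 10 fibroblast markers, 6 were under 1 FPKM in every library, and COL1A2 was listed at 0 in all 6 libraries. The summed FPKM was 26.7 to 38.5 in control cells and 28.1 to 43.2 in EFTUD2-overexpressing cells, mostly from ACTA2. COL1A1 did not exceed 0.15 FPKM in control cells and stood at 0.78, 2.05 and 0.11 FPKM with EFTUD2. LUM did not exceed 0.01 FPKM in control cells and stood at 0.35, 0.56 and 0.01 FPKM with EFTUD2. COL3A1, a fibrillar collagen gene, was at 0 in every control library and reached 0.62, 1.49 and 0.14 FPKM with EFTUD2. Of 8 markers of basal or squamous epithelium, 6 were under 1 FPKM everywhere, and KRT5 was listed at 0 in all libraries. The summed FPKM was 35.0 to 52.2 in control cells and 39.6 to 198.5 in EFTUD2-overexpressing cells, mostly from KRT17 and SFN. KRT14 did not exceed 0.01 FPKM in control cells and stood at 0.29, 0.83 and 0.09 FPKM with EFTUD2. Of 9 macrophage markers, 5 were under 1 FPKM everywhere, TYROBP was listed at 0, and PTPRC did not exceed 0.02 FPKM. The summed FPKM of 775 to 2281 and 885 to 1749 came mostly from LYZ. CD14 was higher in every EFTUD2 library, with control and EFTUD2 means of 0.83 and 1.99 FPKM. Of 7 endothelial markers, 6 were under 1 FPKM everywhere, KDR did not exceed 0.01 FPKM, and the summed FPKM was 1.27 to 1.68 and 1.32 to 1.75. VWF (control and EFTUD2 means of 0.25 and 0.53 FPKM) and CDH5 (0.07 and 0.25 FPKM) were higher in every EFTUD2 library. PECAM1 was lower, with means of 1.01 and 0.66 FPKM. Of 6 bile duct markers, CFTR was listed at 0, KRT19 was 2.49 times higher in control cells, SPP1 was 2.70 times higher in EFTUD2-overexpressing cells, and the summed FPKM was 658 to 1012 and 802 to 1577.

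Pyruvate dehydrogenase and its kinases overlapped between the groups wherever they were abundant enough to test. PDHB, the beta subunit of the complex, stood at 47.85, 40.58 and 41.90 FPKM in control cells and at 42.47, 41.30 and 30.64 FPKM in the EFTUD2 libraries. PDHA1, the alpha subunit, stood at 30.0 ± 3.14 and 32.7 ± 2.85 FPKM (SD, n = 3). The kinases PDK1 and PDK2, which inactivate the complex, had means of 7.82 and 10.3 FPKM in control cells and 9.13 and 11.0 FPKM in EFTUD2-overexpressing cells. PDK4, the kinase induced by fasting, was listed at 0.01, 0 and 0 FPKM in control cells and at 0.12, 0.32 and 0.10 FPKM in the EFTUD2 libraries. The values are close to 0 and were not tested, and they bring the genes higher in every EFTUD2 library to 10 of 38.

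In gluconeogenic genes EFTUD2 replicate 3 was the highest EFTUD2 library in 4 of 6 genes. With these 4 included, this held for 6 of all 37 tested members (16.2%), and for 31.3% of all genes tested. PCK2, the mitochondrial PEP carboxykinase, stood at 71.37, 74.84 and 82.18 FPKM in control cells and at 102.70, 95.44 and 150.83 FPKM in EFTUD2-overexpressing cells. Every EFTUD2 library was above every control. PCK2 had a log2 fold change of 0.58 (SE 0.18), with an adjusted p of 0.402 from limma, and it was 0.38 without EFTUD2 replicate 3. SLC37A4, which carries glucose-6-phosphate into the endoplasmic reticulum, stood at 21.15, 19.90 and 21.62 FPKM in control cells and at 25.72, 24.34 and 27.28 FPKM in the EFTUD2 libraries, with no overlap. Its log2 fold change was 0.29 (SE 0.10), with an adjusted p of 0.402 from limma.

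The cytosolic PEP carboxykinase PCK1, which is under hormonal control in liver, stood at 8.13, 1 and 3.67 FPKM in control cells and at 5.07, 3.63 and 54.71 FPKM in the EFTUD2 libraries. EFTUD2 replicates 1 and 2 were within the range of the controls and EFTUD2 replicate 3 was 12.8 times the control mean. The log2 fold change was 1.40 (SE 1.003) with all libraries, 0.27 without EFTUD2 replicate 3 and 0.83 without control replicate 2. PCK1 held 1.32% to 10.2% of PEP carboxykinase FPKM in control cells and 4.70%, 3.66% and 26.6% in the EFTUD2 libraries. G6PC, the catalytic subunit of glucose-6-phosphatase, had a similar order at a lower level, with 2.96, 0.19 and 1.18 FPKM in control cells and 1.13, 0.85 and 3.85 FPKM in the EFTUD2 libraries. Both genes were lowest in control replicate 2, and their per-library values were shown for this spread. PC, pyruvate carboxylase, ranged from 20.80 to 30.31 FPKM in controls and from 25.08 to 37.70 FPKM in EFTUD2 libraries. FBP1, fructose-1,6-bisphosphatase, was near 0 throughout, at 0.11 FPKM on average in either group.

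The groups overlapped in both lactate transporters. SLC16A3, encoding the lactate exporter MCT4, stood at 242.14, 208.50 and 251.39 FPKM in control cells and at 247.72, 277.62 and 223.62 FPKM in the EFTUD2 libraries. SLC16A1, encoding MCT1, stood at 45.4 ± 1.54 and 40.5 ± 5.46 FPKM (SD, n = 3). SLC16A3 thus held 81.6% to 86.9% of the summed FPKM of both transporters in the 6 libraries.

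**Figure D5:**
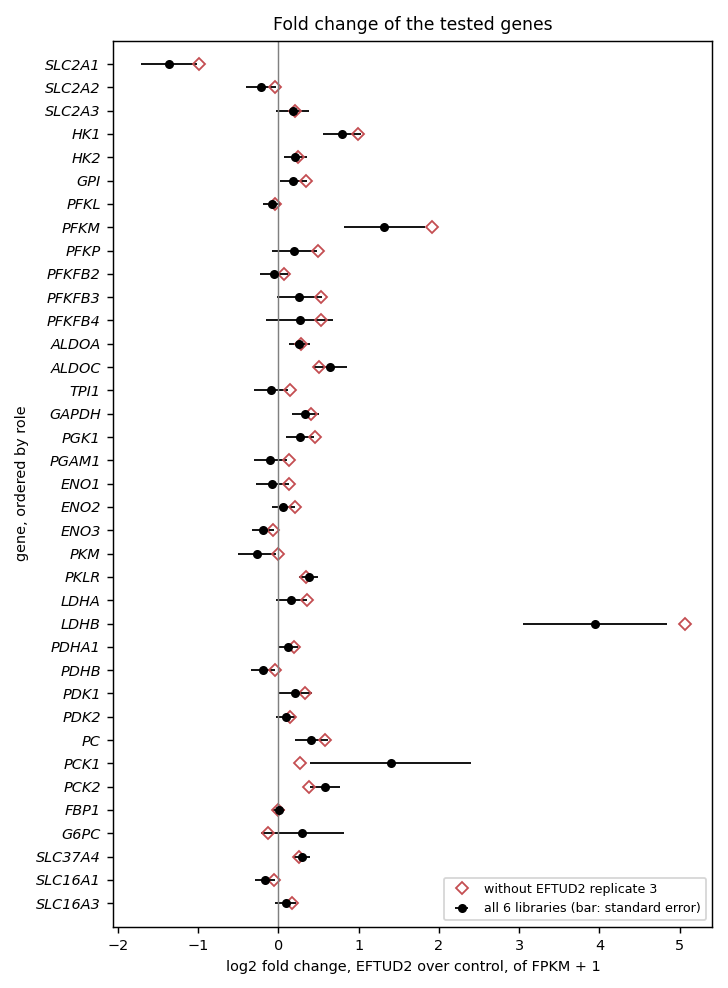
Log2 fold change of FPKM + 1 (EFTUD2 over control) for the 37 tested genes, with standard errors, from all 6 libraries (black) and without EFTUD2 replicate 3 (open red). LDHB has the highest value, 3.95, and SLC2A1 the lowest, -1.36. Most genes shift to higher values without EFTUD2 replicate 3, whereas PCK1 shifts from 1.40 to 0.27.

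The controls also varied in these genes. Control replicate 2 was the lowest control in 19 of 37 members (51.4%), against 35.7% of all genes, and in 16 of 24 hypoxia factors and hypoxia-induced genes outside glycolysis. NDRG1, a hypoxia-induced stress gene, stood at 55.25, 21.11 and 52.63 FPKM in control cells and at 69.54, 61.34 and 94.61 FPKM in EFTUD2-overexpressing cells. Of the 24 hypoxia genes, 6 were higher and 3 lower in every EFTUD2 library, against 7.92% and 19.4% of all genes tested. None of the 24 passed an adjusted p of 0.05 from limma, and their median log2 fold change was 0.20. ANKRD37, LOX, which cross-links collagen, and VEGFA, the angiogenic factor, were also among the higher genes, with log2 fold changes of 0.81, 0.67 and 0.46. Without control replicate 2, the log2 fold change was 0.40 for LOX and 0.24 for VEGFA, and that of NDRG1 was 0.45 instead of 0.89. The part of this variation in the member results was not tested.

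In the surrounding pathways, with all 6 libraries, none of the genes passed an adjusted p of 0.05 from limma, and the medians were nearer to that of all genes. Of 32 tested further genes of glycolysis, gluconeogenesis and pyruvate, 4 were higher and 2 lower in every EFTUD2 library. The shares over all genes tested were 7.92% and 19.4%. The median log2 fold change of the 32 genes was -0.03. SLC2A8, encoding an intracellular hexose transporter, stood at 42.60, 55.68 and 39.43 FPKM in control cells and at 26.08, 28.49 and 16.63 FPKM in the EFTUD2 libraries. GPD2, the mitochondrial glycerol-3-phosphate dehydrogenase, was at 0.01 FPKM in each control and at 0.94, 1.83 and 0.06 FPKM in the EFTUD2 libraries, the order seen for LDHB. Its log2 fold change was 0.83 with an adjusted p of 0.402 from limma. It was 1.21 with an adjusted p of 0.0403 without EFTUD2 replicate 3, and 0.51 without EFTUD2 replicate 2. LDHD, which oxidizes D-lactate, had a log2 fold change of 0.71, and of 0.25 without EFTUD2 replicate 3.

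Of 8 tested genes of the pentose phosphate pathway, which branches off at glucose-6-phosphate, 2 were higher in every EFTUD2 library and 0 lower. Over all genes tested, 7.92% were higher and 19.4% lower. The 2 higher genes were TKT, transketolase, with means of 149 and 226 FPKM, and H6PD, with 12.3 and 15.2 FPKM. The log2 fold change of TKT was 0.56, and 0.33 without EFTUD2 replicate 3. Of 19 tested genes of glycogen metabolism, 0 were higher in every EFTUD2 library and 4 lower, near the 19.4% of all genes that were lower, with a median log2 fold change of -0.15. They included PYGB, glycogen phosphorylase of brain type, PHKG2, a phosphorylase kinase subunit, and GYG1, the glycogenin primer, with log2 fold changes from -0.49 to -0.27. Without EFTUD2 replicate 3, that of PYGB was -0.32 and that of PHKG2 was -0.16. EFTUD2 replicate 3 was below the other EFTUD2 libraries in 18 of these 19 genes, against 57.8% of all genes tested.

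Of 20 genes of the tricarboxylic acid cycle, 3 were higher and 1 lower in every EFTUD2 library, against 7.92% and 19.4% of all genes tested. Their median log2 fold change was 0.04. IDH2, the mitochondrial NADP-dependent isocitrate dehydrogenase, stood at 66.2 ± 15.1 and 102.5 ± 2.88 FPKM (SD, n = 3), MDH2 and SDHA differed by less than 0.15 on the log2 scale, and IDH3B was lower, at 72.8 and 61.3 FPKM on average. Of 23 transcription factors and hormonal markers of gluconeogenesis, 5 were higher and 3 lower, with a median of 0.06, beside the same 7.92% and 19.4%. SIK1, a kinase induced by cyclic AMP, stood at 3.14, 1.38 and 1.44 FPKM in control cells and at 5.64, 12.27 and 5.17 FPKM in the EFTUD2 libraries. IGFBP1, an insulin-repressed liver gene, CEBPB, a liver transcription factor, and ARRDC4, a glucose-induced gene, had log2 fold changes of 1.12, 0.57 and -0.71. That of IGFBP1 was 0.34 without control replicate 2, and that of ARRDC4 was -0.47 without control replicate 1.

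Hepatocyte markers were read because the members include genes of gluconeogenesis and liver forms of other steps. Of 16 markers, 4 were higher and 1 lower in every EFTUD2 library, against 7.92% and 19.4% of all genes tested. The median log2 fold change of the markers was 0.28 with all libraries and 0.0027 without EFTUD2 replicate 3. EFTUD2 replicate 3 was the highest EFTUD2 library in 14 of the 16 and in 31.3% of all genes tested. Among the members it was also the highest for PCK1, PCK2, G6PC, SLC37A4 and PKLR, but the lowest for SLC2A2, PFKL and PC. For FBP1, EFTUD2 replicates 2 and 3 were equal at 0.12 FPKM. The summed FPKM of the 16 markers was 11675 to 17635 in control cells and 15493 to 22316 in EFTUD2-overexpressing cells. The 4 higher markers were APOH, SERPINA1, FGG and APOB, all secreted plasma proteins, with log2 fold changes of 0.75, 0.66, 0.65 and 0.28, and FGG was at 0.35 without control replicate 2. The part of the hepatocyte markers in the gluconeogenic results was not tested.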

How the data were processed

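From total RNA of Hep G2 cells the authors selected poly-A mRNA, read it on a BGISEQ-500 sequencer and deposited 1 table of FPKM per gene and library (3 control and 3 EFTUD2 libraries, from the labels). The submitters' processing notes name HISAT2, Bowtie2, RSEM, DESeq2 and hg38, with no versions or roles. The table holds 0 value columns of other samples. FPKM sums ranged from 404342 to 434542, and low values showed no common step (the commonest ratio held at most 2.71% of genes), so read depth is unknown and limits how small values can be read.

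From the deposited FPKM, log2(FPKM + 1) was tested with limma 3.58.1 (lmFit, eBayes with trend) in R 4.3.3, after a filter at a mean of 0.1 FPKM. The fold change of low genes is understated on this scale. limma was tested on simulated data. Shares of isozymes were compared by exact two-sided permutation tests. Promoter windows came from RefSeq (GRCh38.p14) and were matched by gene identifier. Further steps used Python 3.11.15 with pandas 2.3.3 and matplotlib 3.10.9.

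The genes and lists were chosen with earlier results of these data known. By rule, all members were named, with every library's value for those whose groups did not overlap and for the most abundant of each role, and up to 4 genes per list whose groups did not overlap. Alternatives were other pseudocounts (0.1 and 0.01), filters (none, or a mean of 1 FPKM), scalings (median of ratios, quantile, common sum), robust eBayes, array weights, a block for the replicate number, and each library left out in turn. A few single-gene results are not reported here.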

Additional observations from a re-analysis of the deposited data

How the results depend on the processing

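Of the 37 tested members, 25 kept the sign of their log2 fold change in all 16 settings. With array weights 1246 genes and 5 members (SLC2A1, HK1, PFKM, PKLR and LDHB) passed the adjusted p, but the weights were estimated by a step that stopped before it converged. When 1 library was left out, 0 to 167 of all genes and 0 to 2 members passed it, the upper values without EFTUD2 replicate 3. Members at an unadjusted p under 0.05 then numbered 4 (without control replicate 2) to 16 (without EFTUD2 replicate 3), members higher in every EFTUD2 library 9 to 17 (without EFTUD2 replicate 3), and members lower in every EFTUD2 library 1 to 4 (without EFTUD2 replicate 1). The common sum per library gave 7 higher members, with GAPDH and ALDOA then overlapping, and 2 lower members. Median-of-ratios scaling gave 13 higher, while the median of all genes shifted from -0.07 as deposited to 0.0023 under median of ratios. The share of all genes with such a pattern was not counted under either scaling, so these member counts cannot be set beside it. The replicate numbers did not pair the samples (correlations of deviations -0.30, 0.35 and -0.09). With the replicate block, 0 members passed the adjusted p and 7 an unadjusted p under 0.05.

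The log2 fold change turned sign under median-of-ratios scaling in PFKL (0.039), PFKFB2 (0.033), TPI1 (0.024), PGAM1 (0.014) and ENO1 (0.039). It did so under quantile normalization in PFKFB2 (0.034) and FBP1 (-0.017), under the common sum in FBP1 (-0.0035), and with array weights in SLC2A3 (-0.32), PFKFB2 (0.16), TPI1 (0.034), PGAM1 (0.0054), ENO1 (0.046), PDK2 (-0.0035) and G6PC (-0.069). With 1 library left out it ranged from -0.13 to 0.0070 in PFKL, -0.036 to 0.49 in PFKP, -0.16 to 0.063 in PFKFB2, -0.19 to 0.53 in PFKFB4, -0.25 to 0.14 in TPI1, -0.24 to 0.13 in PGAM1, -0.22 to 0.14 in ENO1, -0.015 to 0.21 in ENO2, -0.044 to 0.015 in FBP1 and -0.14 to 0.73 in G6PC. The PCK1 share of PEP carboxykinase, EFTUD2 minus control, ranged from -1.09 (without EFTUD2 replicate 3) to 10.4 percentage points. The cause was not tested. FPKM without read numbers limits what can be read near 0, as for PDK4, FBP1 and the control values of LDHB.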
